A study of Homo sapiens with 6 samples.

Results

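The 33 genes described here are markers and regulators of the mesenchymal state and of epithelial-mesenchymal transition (EMT). They were taken by name, as every probe set whose single gene symbol in the array's annotation was one of the 33. All 33 were found among the 19775 genes with a single symbol, through 97 probe sets. Total RNA was hybridised to 6 Affymetrix arrays. All of it came from IMR32, a long-established neuroblastoma line of human origin with an amplified MYCN gene. The control group held 3 arrays from IMR32 cells given 0.1% DMSO, and the treated group 3 arrays from IMR32 cells given 118 µM teriflunomide. Both groups were treated for 24 h, starting 12 h after seeding. The labels do not say if DMSO was present beside teriflunomide. The titles call the arrays biological replicates, but separate cultures are not described, so the spread that the p-values rest on is that of these 6 arrays and may be technical. In bulk RNA, fewer cells of a type and less RNA per cell cannot be told apart.

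Teriflunomide inhibits dihydroorotate dehydrogenase, a mitochondrial enzyme that cells need to make pyrimidines de novo. Neuroblastoma cells occur in an adrenergic state, which resembles sympathetic neuroblasts, and in a mesenchymal state, which resembles neural crest precursors and carries genes such as VIM, FN1, PRRX1 and YAP1. In epithelia, EMT is driven by transcription factors of the SNAI, ZEB and TWIST families, which repress junction genes. TGF-beta receptors, receptor tyrosine kinases and the YAP/TAZ-TEAD pathway feed into these factors. The comparison asked how the expression of these genes differed between teriflunomide and DMSO, and which of them IMR32 cells expressed above the floor of the arrays.

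Values are log2 intensities, so a difference of 1 is a doubling. Each array had the same lowest value, 2.18, and between 33.9% and 34.3% of its probe sets lay at it. Array medians were between 2.63 and 2.66. Probe sets entered the test if 3 or more of the 6 arrays had a value no lower than that array's median; the filter does not use the treatment. A value at the floor gives only an upper bound. Of the adrenergic markers, 9 of 12 passed this filter, among them PHOX2A, GATA2, GATA3 and HAND2. In the test described below, 55.6% of these 9 were called, near the 58.6% of all genes. TBX2 rose by 0.84, PHOX2A by 0.76, GATA3 by 0.35 and ISL1 by 0.22, and CHGA (chromogranin A) fell by 1.46. HAND2 (-0.04), GATA2 (-0.08), CHGB (0.30) and DBH (-0.94) did not pass that test, and DBH lay under log2 5 in both groups. TH, the first enzyme of catecholamine synthesis, lay below the filter, and 2 were not analysed here. Blood and endothelial markers gave 0 of 7 analysed genes above the filter, with 2.22 as their highest value. Of Schwann cell and glial markers 1 of 4 analysed passed. Fibroblast markers stood differently. Of 8, 5 passed (COL1A1, COL3A1, LUM, PDGFRA and PDGFRB), while COL1A2, DCN and FAP stayed at or below 2.23. The summed linear intensity of those 5 was 7005 to 7368 on the DMSO arrays and 10204 to 10705 on the teriflunomide arrays, so it moved with the treatment beside the genes below. The markers did not move as a block. COL1A1 rose by 0.94 and LUM by 0.61, PDGFRA fell by 0.26, and COL3A1 (0.37) and PDGFRB (-0.0019) did not pass. The part of the summed signal in the changes of the genes below was not tested. A control for RNA or target length also differed. The ACTB 3' minus 5' log2 signal averaged 1.36 ± 0.03 (SD, n = 3) on the DMSO arrays and 1.62 ± 0.07 (SD, n = 3) on the treated arrays (exact two-sided permutation p = 0.1, the smallest this design allows). The same measure for GAPDH was 0.049 ± 0.006 and 0.063 ± 0.021 (exact permutation p = 0.4). The part of target length in the changes below was not tested.

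Of the 33 genes, 21 had a probe set above the filter and 12 had none. That is 63.6%, near the 60.7% of all 19775 genes that passed the same filter. For all 21, the probe set that stood for the gene lay above the array median on all 6 arrays, so none was tested through 1 group alone. On 19 of the 21 it lay above log2 5 on all 6 arrays, and the exceptions were TNC and ZEB2. After teriflunomide, 11 of the 21 rose and 6 fell, and 4 did not pass. The test was limma with Benjamini-Hochberg adjustment over all 11998 genes tested, at an adjusted p under 0.05. The same test called 58.6% of all genes tested, 29.7% higher and 28.9% lower, so a call alone does not set these genes apart. The median log2 fold change was 0.31 over the 21 genes and 0.0015 over all genes. At least 2-fold, 3 rose (ZEB2, ANXA2 and TGFBR2) and 3 fell (TNC, SNAI2 and THY1), where 5.24% of all genes rose and 4.53% fell that far. The groups did not overlap for 19 of the 21, against 67% of all genes. All 21 reached log2 5 or more in at least 1 group, whereas the genes tested include dimmer ones. These shares are thus not of genes at a like level. With a filter at the 75th percentile, the share of all genes called was 71.4%.

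**Figure D1:**
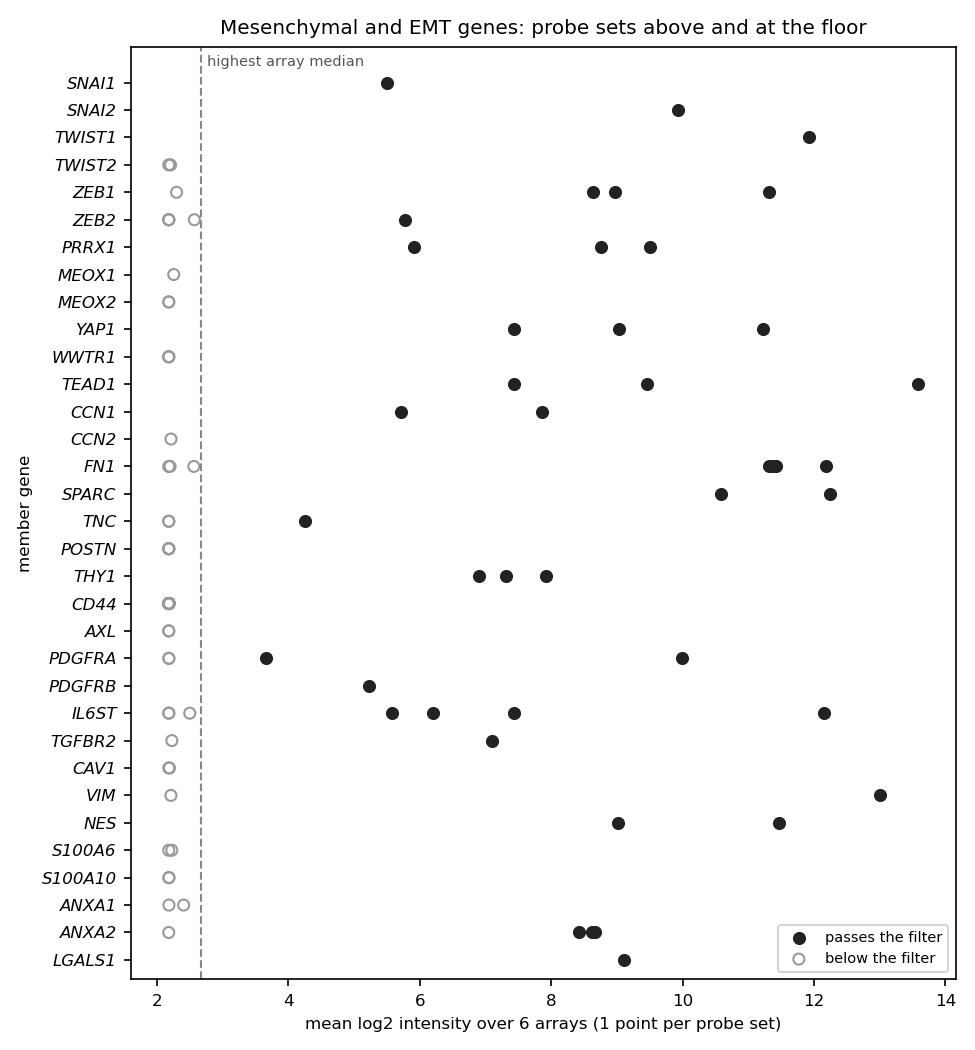
Mean log2 intensity over the 6 arrays of each of the 97 probe sets of the 33 genes, with 1 row per gene. Filled points passed the filter (43 probe sets), open points did not (54), and the dashed line is the highest array median, 2.66; 12 genes have open points alone.

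The 12 genes without a probe set above the filter were TWIST2, MEOX1, MEOX2, WWTR1, CCN2, POSTN, CD44, AXL, CAV1, S100A6, S100A10 and ANXA1, with 36 probe sets in all. CD44, the hyaluronan receptor and a common marker of mesenchymal neuroblastoma cells, had 13 probe sets, and all of them stayed between 2.18 and 2.20 on every array. AXL, a receptor tyrosine kinase for GAS6, CAV1, the coat protein of caveolae, and POSTN, a secreted matrix protein, read 2.18 or 2.19 on every array. WWTR1, which encodes TAZ, the paralogue of YAP1, had 3 probe sets at 2.18 on every array. MEOX2, a homeobox factor, did too, with 2 probe sets. ANXA1, a calcium-dependent phospholipid-binding protein, was the only one of the 12 with a value above the array medians. Its higher probe set read 2.22, 2.18 and 2.21 in DMSO, and 3.17, 2.42 and 2.22 with teriflunomide. One teriflunomide array thus stood above the others, at a level near the floor, and the gene was not tested.

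The EMT transcription factors split by family. The ZEB genes and TWIST1 rose and both SNAI genes fell. ZEB2, a zinc finger repressor, moved most. It read 5.43, 4.61 and 5.02 in DMSO and 6.61, 6.60 and 6.41 with teriflunomide. Every teriflunomide array lay above every DMSO array, although the DMSO arrays themselves spread widely. It rose by 1.52 on the log2 scale (SE 0.21, limma adjusted p = 0.00199), or 2.87-fold. The 4 other ZEB2 probe sets were below the filter. ZEB1, its paralogue, read 11.15, 11.14 and 11.12 in DMSO and 11.48, 11.52 and 11.49 with teriflunomide. This was a small rise of 0.36 (SE 0.03, limma adjusted p = 0.000243) between tightly grouped arrays. Of its other probe sets, tested singly, one rose by 0.47 and one, at 0.10, did not pass. TWIST1, a basic helix-loop-helix factor, read 11.47, 11.73 and 11.52 in DMSO and 12.22, 12.17 and 12.43 with teriflunomide. It rose by 0.70 (SE 0.10, limma adjusted p = 0.00232), with no overlap between the groups.

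SNAI2, which encodes the zinc finger repressor SLUG and is expressed in migrating neural crest, read 10.63, 10.45 and 10.51 in DMSO. With teriflunomide it read 9.25, 9.51 and 9.26. All 3 treated arrays lay well below the controls. It fell by 1.19 on the log2 scale (SE 0.09, limma adjusted p = 0.000228), a 2.28-fold decrease. SNAI1 (SNAIL) lay closer to the floor and its fall was smaller, from 5.85, 5.51 and 5.75 to 5.26, 5.41 and 5.27. The difference was -0.39 on the log2 scale (SE 0.10, limma adjusted p = 0.0187). That call was lost when DMSO array 3, teriflunomide array 1 or teriflunomide array 3 was left out, and without the filter (adjusted p between 0.0592 and 0.0638). Each SNAI gene and TWIST1 had a single probe set. TWIST2 was at the floor.

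Of the 3 mesenchymal homeobox factors only PRRX1 was above the filter. PRRX1 is a core transcription factor of the mesenchymal neuroblastoma state. It read 9.33, 9.18 and 9.27 in DMSO and 9.74, 9.86 and 9.62 with teriflunomide. The groups did not overlap, and the gene rose by 0.48 (SE 0.08, limma adjusted p = 0.00303). Its other probe sets stood at 0.70 (adjusted p = 0.0130 over probe sets, limma) and at 0.26, the latter not past the threshold (adjusted p = 0.0563, limma).

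**Figure D2:**
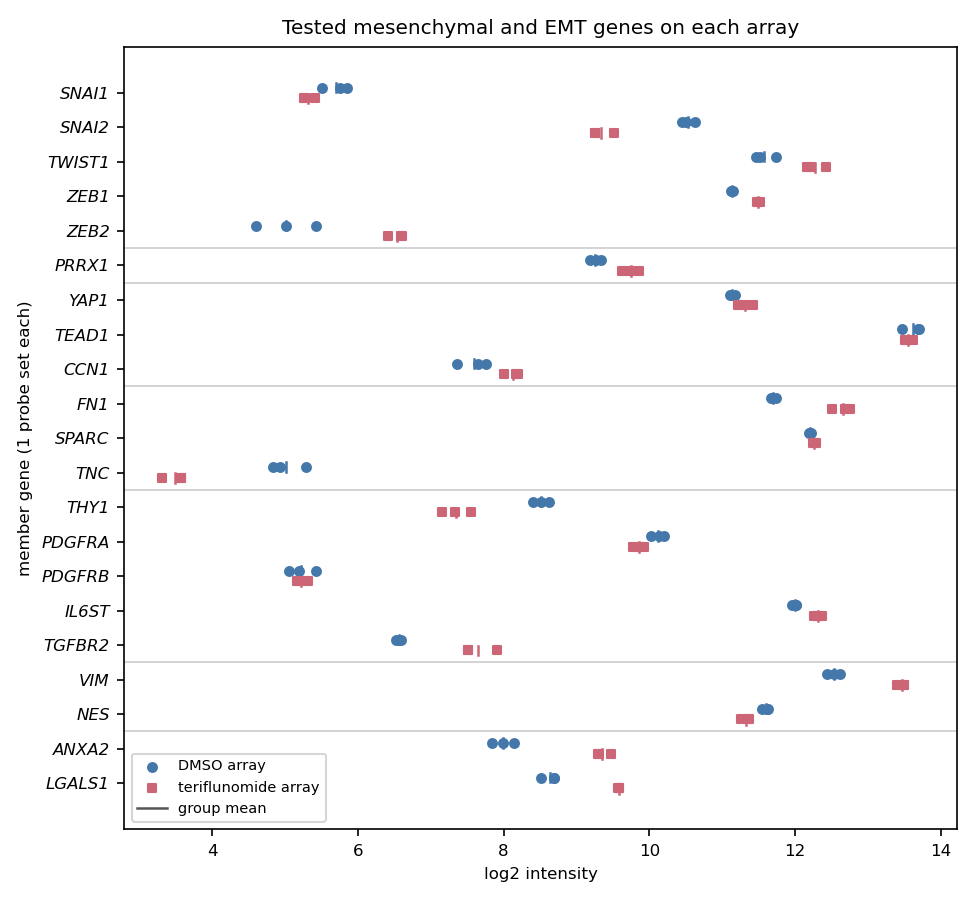
Log2 intensity of the 21 tested genes on each of the 3 DMSO arrays (circles) and 3 teriflunomide arrays (squares), with group means as vertical ticks and grey lines between gene groups. For TEAD1 and PDGFRB the groups overlap, and for the other 19 they do not; levels of different genes come from different probes and are not comparable.

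In the YAP/TAZ-TEAD branch, YAP1 and TEAD1 were above the filter and did not pass the test, WWTR1 was at the floor, and of the secreted targets 1 rose and 1 was at the floor. TEAD1, the DNA-binding partner of YAP1, read 13.70, 13.46 and 13.68 in DMSO and 13.61, 13.54 and 13.51 with teriflunomide. The groups overlapped. The difference was -0.06 with a 95% interval from -0.25 to 0.13 (limma adjusted p = 0.501), and the 2 other probe sets stood at -0.10 and 0.15. YAP1, the coactivator, read 11.18, 11.11 and 11.12 in DMSO and 11.30, 11.43 and 11.22 with teriflunomide, with a difference of 0.18 (95% interval 0.02 to 0.33, limma adjusted p = 0.0510). It passed in 6 of the other settings tried, those with centred or quantile-normalised arrays among them, and its 2 other probe sets stood at 0.24 and -0.09, so its call is not settled. CCN1, a secreted matricellular protein and classical YAP-TEAD target, read 7.76, 7.35 and 7.65 in DMSO and 8.17, 8.01 and 8.20 with teriflunomide. It rose by 0.54 (SE 0.12, limma adjusted p = 0.0111), while its second probe set, at 0.52, did not pass (adjusted p = 0.0599 over probe sets, limma). CCN2 (connective tissue growth factor), its relative and also a classical YAP-TEAD target, read between 2.20 and 2.26 on all 6 arrays.

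The sequence before the CCN2 start site is shown because it carries the TEAD recognition letters while TEAD1 was expressed and CCN2 was at the floor. It is from RefSeq (GRCh38.p14), covers the 250 bases before the annotated start, chr6:131951373-131951622 on the minus strand, and is written 5′ to 3′. Capitals mark GGAATG, the TEAD motif, and GGGCGG, the GC box bound by SP1-type factors, each on either strand.
CCN2: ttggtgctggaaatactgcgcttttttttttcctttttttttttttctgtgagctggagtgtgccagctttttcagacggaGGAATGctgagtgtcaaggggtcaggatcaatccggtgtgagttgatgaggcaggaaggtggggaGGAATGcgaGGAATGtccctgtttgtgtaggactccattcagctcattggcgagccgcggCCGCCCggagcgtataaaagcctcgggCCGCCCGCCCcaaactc
GGAATG occurred 3 times, at 169, 104 and 95 bases before the start, and the GC box 3 times, with 1 overlap between GC boxes. GGAATG was found in 11.9% of 35116 promoters of this length. The table held 25 of the 33 genes, and among these YAP1, SPARC and AXL had it as well, before at least 1 annotated start. CCN1 was not in the table. A match of letters describes the sequence and does not show binding.

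Of the 4 matrix genes, FN1 rose, TNC fell near the floor, SPARC did not pass and POSTN was at the floor. FN1, which encodes fibronectin, read 11.74, 11.69 and 11.67 in DMSO and 12.51, 12.75 and 12.69 with teriflunomide. It rose by 0.95 (SE 0.07, limma adjusted p = 0.000208), a 1.94-fold increase. Its 3 other probe sets above the filter rose by 0.95 to 1.02, so the probe sets gave the same size. The probe set that stands for FN1 carries the suffix for probes that can bind other transcripts. Those at 0.95 and 1.02 do too, while the one at 0.96 has a different suffix. Of its 7 probe sets, 4 were above the filter. TNC, which encodes the extracellular matrix glycoprotein tenascin C, went from 4.92, 4.83 and 5.29 to 3.31, 3.58 and 3.58. The difference was -1.53 on the log2 scale (SE 0.14, limma adjusted p = 0.000480). Most of this range lay under log2 5, and with values under log2 5 raised to 5 the difference was -0.10 (adjusted p = 0.438, limma). SPARC (osteonectin), a collagen-binding matricellular protein, read 12.22, 12.19 and 12.21 in DMSO and 12.26, 12.29 and 12.24 with teriflunomide. Its arrays did not overlap, yet the difference of 0.06 (95% interval -0.01 to 0.13) did not pass (limma adjusted p = 0.138), and it became -0.03 with arrays centred on the poly-A spikes.

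Among surface proteins and receptors, 2 rose, 2 fell, 1 did not pass and 3 were at the floor. THY1 (CD90), a glycosylphosphatidylinositol-anchored glycoprotein of neurons and mesenchymal stem cells, read 8.62, 8.40 and 8.51 in DMSO and 7.16, 7.55 and 7.33 with teriflunomide. It fell by 1.16 on the log2 scale (SE 0.11, limma adjusted p = 0.000529), and its 2 other probe sets fell by 1.00 and 1.10. TGFBR2, the ligand-binding TGF-beta receptor, read 6.52, 6.60 and 6.57 in DMSO and 7.51, 7.505 and 7.91 with teriflunomide. The DMSO arrays lay close together and all treated arrays were higher. It rose by 1.08 (SE 0.12, limma adjusted p = 0.000824), a 2.12-fold increase on its 1 probe set above the filter. IL6ST (gp130), the signal-transducing subunit shared by receptors of the IL-6 family, read 11.95, 12.02 and 12.02 in DMSO and 12.26, 12.30 and 12.37 with teriflunomide. It rose by 0.31 (SE 0.04, limma adjusted p = 0.00166), and its 3 other probe sets above the filter stood at 0.51 to 0.86, of which the one at 0.51 did not pass. With its probe sets averaged, IL6ST rose by 0.56.

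The PDGF receptors, tyrosine kinases of mesenchymal and neural crest cells, moved little. PDGFRA read 10.20, 10.02 and 10.13 in DMSO and 9.77, 9.93 and 9.86 with teriflunomide. The difference was -0.26 on the log2 scale (SE 0.07, limma adjusted p = 0.0179), but the call was lost when any of DMSO arrays 1 and 3 and teriflunomide arrays 1 and 3 was left out (adjusted p between 0.0501 and 0.0572) and without the filter. A second, dim PDGFRA probe set stood at 0.32 and did not pass, and the mean of the pair was 0.03. PDGFRB read 5.05, 5.42 and 5.19 in DMSO and 5.18, 5.31 and 5.16 with teriflunomide. The groups overlapped, with a difference of -0.0019 and a 95% interval from -0.26 to 0.26 (limma adjusted p = 0.999).

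**Figure D3:**
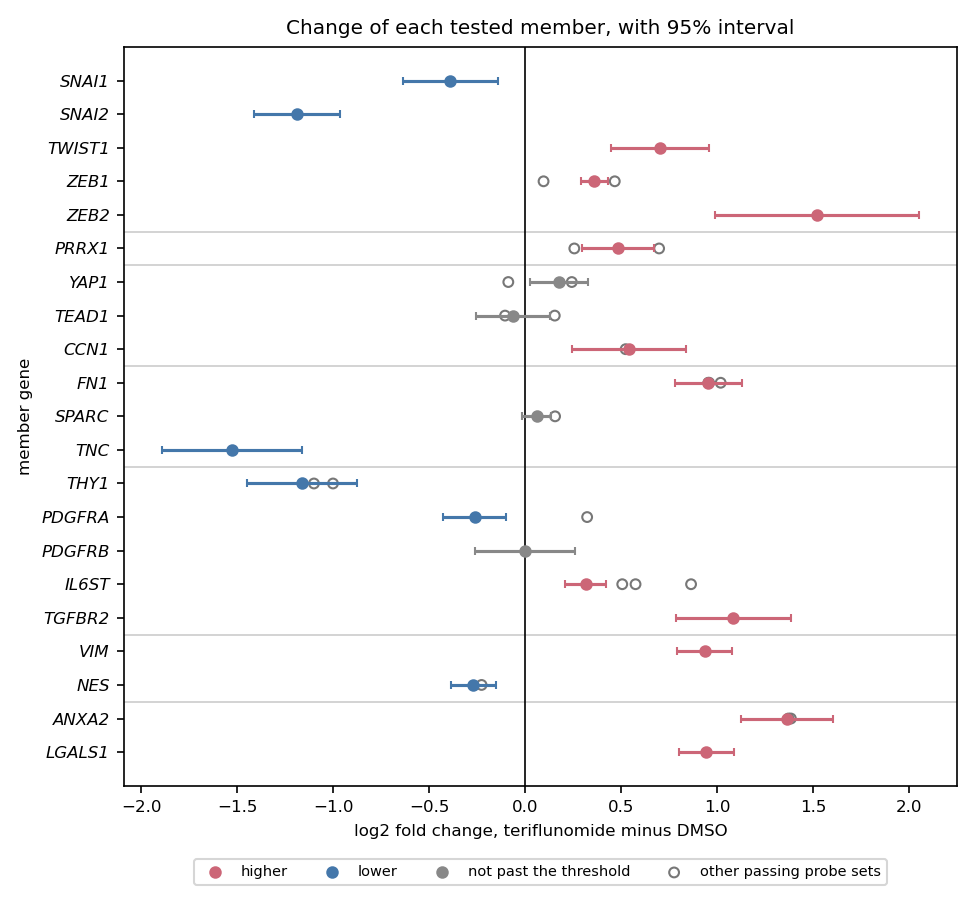
Log2 fold change, teriflunomide minus DMSO, of the 21 tested genes with its 95% interval from limma (n = 3 per group); colours give the call and open circles the other probe sets of the gene above the filter. ZEB2 at 1.52 and TNC at -1.53 lie farthest from 0, and open circles on the other side of 0 appear for YAP1, TEAD1 and PDGFRA.

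The intermediate filament genes differed. VIM, which encodes vimentin, the filament of mesenchymal cells, read 12.61, 12.44 and 12.54 in DMSO and 13.49, 13.50 and 13.40 with teriflunomide. It rose by 0.93 (SE 0.06, limma adjusted p = 0.000122), a 1.91-fold increase well beyond the spread of either group. NES, which encodes nestin, the filament of neural progenitors, fell slightly. It read 11.54, 11.61 and 11.63 in DMSO and 11.35, 11.37 and 11.25 with teriflunomide, a log2 fold change of -0.27 (SE 0.05, limma adjusted p = 0.00447). Its second probe set, at -0.23, did not pass.

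Of the S100, annexin and galectin genes, ANXA2 and LGALS1 rose while S100A6, S100A10 and ANXA1 were not above the filter. ANXA2 encodes annexin A2, a calcium-dependent membrane-binding protein that forms a complex with S100A10. It read 8.14, 7.995 and 7.83 in DMSO and 9.29, 9.47 and 9.30 with teriflunomide. It rose by 1.36 (SE 0.09, limma adjusted p = 0.000180), a 2.57-fold increase, and its other 2 probe sets above the filter rose by 1.37 and 1.38. All 3 carry the suffix for probes that can bind other transcripts, and annexin A2 has near-identical pseudogenes, so its identity on these probe sets is uncertain. The pseudogene ANXA2P2 stood at 0.48 and did not pass (limma adjusted p = 0.0849). S100A10, its binding partner, read at most 2.18 on its higher probe set. LGALS1, which encodes galectin-1, a beta-galactoside-binding lectin, read 8.69, 8.51 and 8.69 in DMSO and 9.585, 9.57 and 9.58 with teriflunomide. Its treated arrays had the smallest SD of the 21 genes. It rose by 0.94 (SE 0.06, limma adjusted p = 0.000123).

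FN1, VIM and ANXA2 rose 1.9 to 2.6-fold, and the 250 bases before their starts are shown for comparison, from RefSeq (GRCh38.p14). The windows are chr2:215436069-215436318 on the minus strand for FN1, chr10:17227991-17228240 on the plus strand for VIM and chr15:60397987-60398236 on the minus strand for ANXA2. Capitals mark the GC box GGGCGG and the AP-1 motif TGANTCA on either strand. LGALS1 and TGFBR2 are left out, the first because it was not in the table and the second because it has more than 1 annotated start.
FN1: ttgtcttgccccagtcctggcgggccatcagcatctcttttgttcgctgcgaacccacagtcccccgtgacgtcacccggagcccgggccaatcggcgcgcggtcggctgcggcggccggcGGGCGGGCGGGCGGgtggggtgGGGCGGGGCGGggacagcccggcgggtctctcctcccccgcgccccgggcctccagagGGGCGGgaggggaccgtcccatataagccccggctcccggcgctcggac
VIM: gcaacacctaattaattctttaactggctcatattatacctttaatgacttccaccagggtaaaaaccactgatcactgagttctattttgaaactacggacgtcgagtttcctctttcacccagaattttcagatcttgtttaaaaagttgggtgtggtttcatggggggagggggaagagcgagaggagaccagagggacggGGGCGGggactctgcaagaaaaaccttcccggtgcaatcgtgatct
ANXA2: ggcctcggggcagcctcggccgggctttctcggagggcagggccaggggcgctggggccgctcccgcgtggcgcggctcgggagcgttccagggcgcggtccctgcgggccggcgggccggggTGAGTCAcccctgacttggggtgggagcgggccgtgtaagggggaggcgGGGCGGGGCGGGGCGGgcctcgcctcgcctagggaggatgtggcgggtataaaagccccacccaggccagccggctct
FN1 held 6 GC boxes, VIM 1 and ANXA2 3, some of them overlapping in FN1 and ANXA2. ANXA2 alone of these held TGANTCA, 127 bases before its start. The GC box was found in 42.6% of all 35116 promoters and in 19 of the 25 genes in the table, and TGANTCA in 6.57% and 3 of 25. CACCTG, the E-box bound by ZEB and SNAI factors, was found in 17.5% of all promoters and in those of ZEB1 and AXL among the 25 genes. A gene was counted if any of its annotated starts had a match, while the percentages are of single windows. The gene counts can thus run higher and are not directly comparable with the percentages. Both describe the letters in the windows.

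Tested singly with adjustment over 27290 probe sets by limma, 21 of the 43 probe sets above the filter rose, 8 fell and 14 did not pass. Of all probe sets tested, 23.7% rose and 25.2% fell, which is 48.8% called in either direction. Of 12 genes with 2 or more such probe sets, all were called in 1 direction for FN1, THY1 and ANXA2. For YAP1, TEAD1 and PDGFRA the probe sets had opposite signs, with no pair called in opposite directions.

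The genes these factors and receptors act with were followed in 6 lists with 128 genes, of which 89 were tested, 22 rose and 26 fell. The share called, 53.9%, was near the 58.6% of all genes, of which 29.7% rose and 28.9% fell. Apart from genes said to be otherwise, those named here are, per list, the 2 called genes with the largest change and the largest called in the opposite direction. In the epithelial list, 13 of 24 genes lay below the filter, and CDH1 (E-cadherin), chosen after its values were seen, read 2.18 on all 6 arrays. Of 9 tested, 3 rose and 1 fell (44.4% called), and the median change was 0.07. ESRP1, an epithelial splicing regulator, averaged 4.24 ± 0.04 (SD, n = 3) in DMSO and 7.63 ± 0.12 (SD, n = 3) with teriflunomide. This was a rise of 3.39 (SE 0.07, limma adjusted p = 1.25e-05), from DMSO values that all lay under log2 5. Its second probe set rose by 1.77, with means under log2 5 in both groups. OCLN, the tight junction protein occludin, went from 6.59 ± 0.31 to 4.11 ± 0.34, a change of -2.48 (SE 0.23, limma adjusted p = 0.000448). It was -1.59 with values under log2 5 raised to 5 and -1.61 with probe sets averaged. ESRP1 and OCLN thus moved in opposite directions, but OCLN was the only gene of this list called lower. JUP and LLGL2, chosen after their values were seen, rose by 0.56 and 0.61, and TJP1, at 0.07, did not pass.

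Of 17 tested TGF-beta genes 9 fell and 3 rose, and their median was -0.19. The share that fell was 52.9%, against 28.9% of all genes, and the share that rose 17.6%, against 29.7%. SKIL and SMAD7, both inhibitors of SMAD signalling, rose by 0.59 (SE 0.06) and 0.58 (SE 0.09), and SKIL by 0.32 with probe sets averaged. Other genes of the list were chosen after their values were seen. Of these, SKI, SMURF1 and SMURF2 fell by 0.37, 0.20 and 0.20, TGIF1 rose by 0.36, and BAMBI, at 0.19, did not pass. TGFB3, a ligand, stood under log2 5 in both groups, and its change of -0.57 was 0 with values under log2 5 raised to 5. TGFBR3, TGFBR1 and SMAD3, chosen after their values were seen, changed by -0.50, -0.19 and -0.54, beside the rise of TGFBR2. The second TGFBR3 probe set fell too, while those of TGFBR1 and SMAD3, at -0.36 and -0.04, did not pass. With a gene's probe sets averaged, 5 of the TGF-beta genes fell, and with plain-suffix probe sets preferred 5 rose.

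Of 21 tested Hippo genes 5 rose and 4 fell (42.9% called, against 58.6% of all genes), and their median was 0.02. The list mixes Hippo kinases, TEAD partners and YAP targets, so its median has no single direction for the pathway. AJUBA, a LIM protein that inhibits the LATS kinases, averaged 10.92 ± 0.16 (SD, n = 3) in DMSO and 12.40 ± 0.08 (SD, n = 3) with teriflunomide. It rose by 1.47 (SE 0.09), and its other 2 probe sets above the filter rose by up to 1.62. DLC1, a GTPase-activating protein, changed by -1.02 (SE 0.09), but by -0.22 with probe sets averaged. ANKRD1, chosen after its values were seen, stood higher, at 1.65, and did not pass (limma adjusted p = 0.0908). Its teriflunomide arrays spread from 3.07 to 5.76. Chosen in the same way, STK3 and NF2 fell by 0.85 and 0.82, AMOTL2 rose by 0.53, and F3, at 0.06, did not pass. MYOF, CRIM1 and AMOT were below the filter. Of 14 tested ligands and co-receptors, 3 rose and 2 fell (35.7% called), and the median was 0.20. IL6R, the IL-6-binding partner of IL6ST, went from 4.15 ± 0.15 to 6.59 ± 0.17, a rise of 2.44 (SE 0.12) that was 1.59 with values under log2 5 raised to 5. PDGFD, a PDGF receptor ligand, changed by -0.85 (SE 0.19). Of the same list, LIFR and IL11RA, chosen after their values were seen, changed by -0.51 and 0.52. IL6, chosen in the same way, read 2.18 on all 6 arrays.

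Of 20 tested mesenchymal adhesion, protease and contractile genes, 5 rose and 7 fell, and their median was -0.0030. The 60.0% called lay near the 58.6% of all genes. LGALS3 (galectin-3) rose by 2.24 (SE 0.10), with means of 6.47 ± 0.16 (SD, n = 3) in DMSO and 8.71 ± 0.11 (SD, n = 3) in the treated group. NT5E (CD73), a mesenchymal stem cell marker, changed by -1.83 near the floor, and by -0.08 with values under log2 5 raised to 5. CDH2 (N-cadherin), FBN1 (fibrillin-1) and COL1A1, chosen after their values were seen, changed by -0.90, -1.06 and 0.94, and every other probe set of CDH2 and FBN1 above the filter fell too. For COL1A1 1 other probe set rose and 2 did not pass. Of 8 tested transcription factors of the mesenchymal neuroblastoma state, 3 rose and 3 fell, 37.5% each, and the median was 0.20. SOX9, a neural crest and chondrogenic factor, changed by -1.11 (SE 0.10), MAFF by 0.50 (0.27 with probe sets averaged) and FOSL2 by -0.51 (-0.25 with probe sets averaged). The FOSL2 call was lost when any array other than teriflunomide array 2 was left out.

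**Figure D4:**
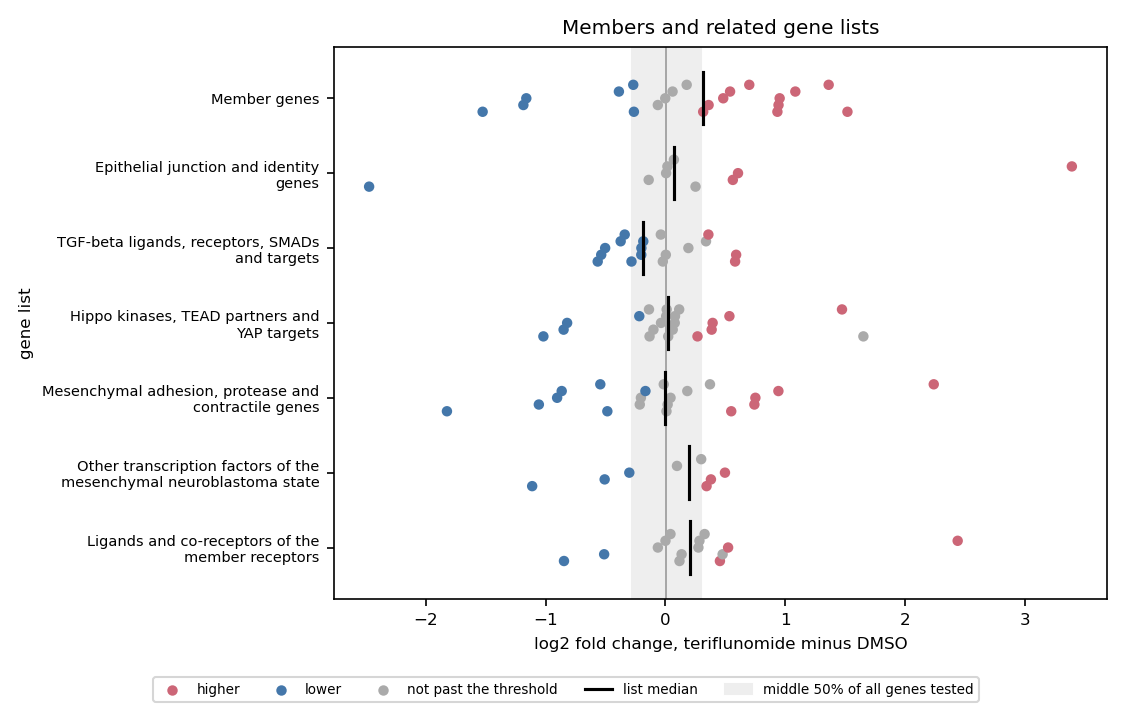
Log2 fold change, teriflunomide minus DMSO, of each tested gene in the member set and the 6 related lists (1 point per gene, coloured by its call), with list medians as black bars. The grey band holds the middle 50% of all 11998 genes tested, from -0.28 to 0.30, and describes single genes, not list medians. The member median is 0.31, and every list holds genes on both sides of 0.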

How the data were processed

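The values deposited by the authors are log2 intensities with 1 value for each probe set on each array. The submitters' processing notes name GCRMA, which models background from probe sequence, equalises the distributions of the arrays and combines the probes of a set; a shift shared by all genes would not show. Version and settings: not given in the sources used here. Arrays give no read depth, and 3 per group limit the precision.

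Of 54675 probe sets, 41091 had 1 symbol in the platform annotation, 1801 several and 11721 none, beside 62 controls. Symbols were checked by gene identifier against RefSeq (GRCh38.p14), which matched 41037; 0 changed. A gene with several probe sets above the filter was represented by that with the highest mean over all arrays. Teriflunomide was compared with DMSO by limma 3.58.1 (R 4.3.3; lmFit, eBayes, no covariates), two-sided, and the script was tested on simulated data. SE is limma's. Context genes were named by rule: per list the 2 largest called changes and the largest opposite one. The members, lists and tests were chosen with earlier results of these data known. The titles do not say if same-numbered arrays are pairs, and the main test did not treat them as pairs. Alternatives are given in the closing section.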

Additional observations from a re-analysis of the deposited data

Results flagged for a closer look

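One probe set outside the gene tests carried signal tied by its annotation to a member. It is annotated to both SNU13, a spliceosomal and small nucleolar RNP protein gene, and ANXA2, so it could be given to neither. Its mean over the 6 arrays was log2 13.36, far above the floor. It read 13.37, 13.41 and 13.43 in DMSO and 13.35, 13.34 and 13.28 with teriflunomide, a difference of -0.08 (SE 0.03, limma adjusted p = 0.126 over probe sets). The ANXA2 probe sets with a single symbol rose by 1.36 to 1.38. Groups of 3 arrays are too small for a search for outlying arrays.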

How the results depend on the processing

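The 11 member genes that rose were called higher in every setting tried, except TGFBR2 and ZEB2 with a filter at the 75th percentile, which left 16 members tested. Counts of members higher stayed between 10 and 12, and counts lower between 4 and 6. Leaving out 1 array gave 11 to 12 member genes higher and 4 to 6 lower, 18 to 21 member probe sets higher and 6 to 8 lower, and 21 to 23 context genes higher and 23 to 26 lower. With the 75th percentile filter, 4 member probe sets were lower. Some values changed sign. PDGFRB stood at 0.0126 with median centring, 0.0215 with quantile normalization, 0.0256 with array weights and -0.0876 to 0.0984 with 1 array left out. SPARC stood at -0.0261 with arrays centred on poly-A spikes and passed with values under log2 5 raised to 5 (adjusted p = 0.0404, limma). PDGFRA, which had been called lower, stood at 0.0296 with probe sets averaged. YAP1 passed with median centring (adjusted p = 0.0395), quantile normalization (0.0466), the 75th percentile filter, trended and robust eBayes, array weights and without teriflunomide array 3; over its settings limma's adjusted p had 0.0254 as its lowest value. The cause of these changes was not tested. Centring on poly-A spikes moved the share of higher among called genes from 50.6% to 40.6% and the median of all genes to -0.08. Same-numbered arrays showed no shared deviation: their deviations correlated across genes at 0.04, 0.10 and -0.09, against -0.16 to 0.14 for differently numbered arrays. This cannot show whether the arrays were handled as pairs, and the titles do not say. With the replicate block, 11 member genes were higher and 4 lower, and SNAI1 (adjusted p = 0.0606) and PDGFRA (0.0681) were the members no longer called. Values near the floor limit what these arrays show for TNC and ZEB2.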

Other observations

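Other members of the protein families of ANXA2, LGALS1, S100A6, S100A10 and CCN1 were listed after the values of the members were seen. The counts below include the members that led to these lists, ANXA2 and LGALS1 among them, so they are not separate evidence. Of 12 annexin genes, 1 was not analysed here, 6 were tested and 5 rose. These 5 include ANXA2, whose identity on its probe sets is uncertain, and ANXA6, at 0.02, did not pass. Besides ANXA2, ANXA7 rose by 0.56 (SE 0.06), ANXA4 by 0.33 (SE 0.08), ANXA5 by 0.32 (SE 0.08) and ANXA11 by 0.30 (SE 0.07), in limma's test over all genes, which called 29.7% of genes higher. Of 10 galectin genes, 1 was not analysed here, 4 were tested and 3 rose (75%, against 29.7% of all genes tested). LGALS3, already named above, rose by 2.24, LGALS1 by 0.94 and LGALS8 by 0.37, while LGALS9 stood at 0.04. Of 19 S100 genes 3 were above the filter, which 60.7% of all genes passed. S100A4, S100A13 and S100A16 stood at 0.18, -0.29 and 0.23 and did not pass. Of the 6 CCN genes CCN1 alone was above the filter, against the same 60.7% of all genes.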
